A study of Mus musculus with 10 samples.

Results

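Adm, Ankrd37, Hif1a, Bnip3 and Ndrg1 are genes of the cellular response to low oxygen. They were taken by symbol from the table of gene levels, and all 5 were found among its 10735 protein-coding genes. Adm and Ankrd37 were chosen by their FPKM difference between the 2 cell lines in these same libraries, and the other 3 were set beside them as known hypoxia genes. The difference between the groups is therefore given for the 5 genes as a description without a test. Their variation among libraries of a group was not used to choose them and is tested. The other genes of the pathway are tested one by one. The lists that hold those genes were chosen with earlier results of these data known. Counts over these lists are therefore descriptions.

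The study compared B16-F1 cells, a mouse melanoma line of C57Bl/6 background labelled WT, with B16-F1ΔFOXC2 cells, whose genotype is labelled delta FOXC2 and which are described as lacking the forkhead transcription factor FOXC2. There were 5 libraries of each, all from untreated cells grown for 24 h in RPMI-1640 with 10% fetal bovine serum to about 90% confluence at passages 5 to 10. The labels give neither how the deletion was made nor how many clones the ΔFOXC2 cells came from, and no low-oxygen culture is among the groups. Whether the libraries came from separate cultures or clones is not stated, so p-values cover only the scatter among these samples, and other differences between the lines cannot be told apart from that of the targeted gene, which was not analysed here.

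Cells sense oxygen through HIF, a transcription factor made of an oxygen-labile alpha subunit (HIF1A or its relative EPAS1) and the stable partner ARNT. With oxygen present, the prolyl hydroxylases of the Egln family mark the alpha subunit, the VHL ubiquitin ligase binds it and it is degraded. Without oxygen, HIF binds a short core motif in its target genes and raises genes of glycolysis, blood vessel growth, mitophagy and pH control. HIF1A is controlled mainly as a protein, so its mRNA is not a measure of its activity.

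The core motif bound by HIF reads ACGTG or GCGTG. The windows from 250 bases before to 50 bases after the RefSeq start sites are shown for Adm and Ankrd37, which differed in level between the cell lines, and for Bnip3, a known HIF target whose groups overlapped (GRCm38.p6, printed 5′ to 3′ in the direction of transcription). Capitals mark every ACGTG or GCGTG, also where it lies on the opposite strand and reads CACGT or CACGC.
Adm, chr7:110627407-110627706, plus strand: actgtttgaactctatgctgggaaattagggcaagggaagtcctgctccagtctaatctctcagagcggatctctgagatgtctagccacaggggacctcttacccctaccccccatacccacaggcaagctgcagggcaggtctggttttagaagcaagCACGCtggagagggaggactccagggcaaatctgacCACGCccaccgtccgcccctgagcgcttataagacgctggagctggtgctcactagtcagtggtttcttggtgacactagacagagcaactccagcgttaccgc
Ankrd37, chr8:45999801-46000100, minus strand: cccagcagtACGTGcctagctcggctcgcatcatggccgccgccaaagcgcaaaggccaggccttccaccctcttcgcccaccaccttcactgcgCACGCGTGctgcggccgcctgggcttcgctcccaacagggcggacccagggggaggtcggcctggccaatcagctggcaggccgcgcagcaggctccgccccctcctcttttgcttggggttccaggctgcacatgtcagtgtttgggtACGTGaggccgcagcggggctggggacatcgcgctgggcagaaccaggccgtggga
Bnip3, chr7:138909457-138909756, minus strand: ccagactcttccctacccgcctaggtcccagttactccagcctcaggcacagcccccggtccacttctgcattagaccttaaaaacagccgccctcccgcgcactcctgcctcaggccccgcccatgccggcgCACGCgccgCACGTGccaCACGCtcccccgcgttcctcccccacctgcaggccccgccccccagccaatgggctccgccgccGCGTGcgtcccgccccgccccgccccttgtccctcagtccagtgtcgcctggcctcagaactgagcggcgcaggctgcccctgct
RefSeq windows were matched for 4 of the 5 genes, the fourth being Hif1a. The Ankrd37 window is not at the outer 5′ end of the gene as measured, which runs on to 46005707. The same holds for Hif1a, whose window begins at 73907617 while the measured gene begins at 73901375. The Adm window held 2 core positions, both GCGTG on the opposite strand, at -90 and -54 from the start site. The Ankrd37 window held 4, with ACGTG at -241 and -6 and, at -155 and -152, GCGTG on both strands, overlapping in one palindrome. The Bnip3 window held 5, and the pair at -108 and -107 is one CACGTG read on both strands, a sequence that is also the E-box bound by MITF and MYC. The Hif1a window held 3, of which 2 lie in a CACGTG. Such matches are frequent: 44.0% of the 32544 distinct windows of this length held at least 1 core position on either strand, 20.8% at least 2, 3.88% at least 4, and 7.17% held CACGTG. These shares are over all windows, whatever their base composition. G and C made up 56% of the Adm window, 69% of that of Ankrd37, 69.3% of that of Hif1a and 71.7% of that of Bnip3. A match is a description of the letters and does not show that HIF binds there.

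Levels are given as FPKM, in which a gene's mapped fragments are divided by its transcript length and by the library's total, which allows levels of different genes to be compared. The 5 genes spanned a wide range. Hif1a was the most abundant, at 51.3 ± 3.93 FPKM (SD, n = 5) in the wild type, above 90.6% of the 10570 tested genes by its mean over all libraries. Ndrg1 and Bnip3 followed at 14.1 ± 1.22 and 10.7 ± 2.64 FPKM in the wild type, and their libraries overlapped. In ΔFOXC2 cells Bnip3 (11.3 ± 2.41) had the higher mean of this pair and Ndrg1 (10.2 ± 0.760) the lower, again with overlapping libraries. Adm and Ankrd37 were near the bottom of the table, above 8.42% and 1.16% of the tested genes. The libraries of Adm did not overlap those of Ankrd37 in either cell line.

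Adm (ENSMUSG00000030790.15, chromosome 7, 110627661 to 110629820, plus strand, GRCm38) encodes adrenomedullin, a secreted peptide that relaxes blood vessels and supports lymphatic and vascular endothelium. It had 2.20, 1.55, 1.42, 1.34 and 1.83 FPKM in wild-type replicates 1 to 5. The ΔFOXC2 replicates 1 to 5 had 1.12, 0.829, 0.753, 1.25 and 0.772 FPKM. Every wild-type library was above every ΔFOXC2 library, though wild-type replicate 4 and ΔFOXC2 replicate 4 came close to each other. The means were 1.67 ± 0.352 and 0.946 ± 0.228 FPKM, a ratio of 1.76. On the log2(FPKM + 0.1) scale, which understates the change of low genes, the difference was 0.76 (SE 0.17), and 0.45 with a pseudocount of 1. An antisense transcript, Gm28863, spans the gene but shares 0 of its exon bases.

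Ankrd37 (ENSMUSG00000050914.16, chromosome 8, 45996902 to 46005707, minus strand) encodes a small ankyrin repeat protein known as a HIF target. Its wild-type replicates 1 to 5 had 1.13, 0.774, 0.823, 0.683 and 0.639 FPKM. The ΔFOXC2 replicates 1 to 5 had 0.207, 0.533, 0.447, 0.523 and 0.0967 FPKM. The groups did not overlap, and the ΔFOXC2 libraries were the more uneven ones, with replicates 1 and 5 well below the other 3. The coefficient of variation was 23.8% in wild-type and 54.8% in ΔFOXC2 libraries. The means were 0.809 ± 0.193 and 0.361 ± 0.198 FPKM, a ratio of 2.24, and the log2 difference was 1.09 (SE 0.32), or 0.42 with a pseudocount of 1. At these levels the value rests on few fragments, and the depth behind it is unknown.

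The Ankrd37 value has a further limit in its position. Of its 1539 exon bases, 22.7% are shared with Lrp2bp and 3.70% with Ufsp2, both on the opposite strand, and whether the counting used strand is not given in the sources used here. Ufsp2, a protease of the UFM1 modifier whose 3′ end overlaps that of Ankrd37, had 9.45 ± 0.470 FPKM against 8.61 ± 0.660 (log2 0.14, limma adjusted p = 0.0933). The level of Ufsp2 was far above that of Ankrd37 in both lines. Lrp2bp, which shares more of the exon bases, was not among the listed genes, so its level is unknown here. How much of the Ankrd37 value comes from reads of the overlapping genes was not tested.

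Ndrg1 (ENSMUSG00000005125.12, chromosome 15, 66929321 to 66969640, minus strand) encodes a cytoplasmic protein induced by hypoxia and other stresses and known as a metastasis suppressor in several tumours. It had 14.3, 15.9, 14.4, 13.3 and 12.7 FPKM in wild-type replicates 1 to 5. The ΔFOXC2 replicates 1 to 5 had 10.2, 10.6, 11.0, 8.98 and 10.2 FPKM. The groups did not overlap and both were even, with coefficients of variation of 8.62% and 7.45%. The log2 difference was 0.47 (SE 0.07), a ratio of means of 1.39, below the 1.5-fold that the study set.

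Bnip3 (ENSMUSG00000078566.8, chromosome 7, 138890836 to 138909519, minus strand) encodes a BH3-domain protein of the outer mitochondrial membrane that marks mitochondria for autophagy. Wild-type replicates 1 to 5 had 14.5, 10.6, 11.6, 7.39 and 9.41 FPKM. The ΔFOXC2 replicates had 12.0, 11.6, 14.9, 8.80 and 9.39 FPKM. The groups overlapped over most of their range and the log2 difference was -0.09, smaller than its SE of 0.18. Its exons share 22.3% of their bases with an antisense gene, Gm45507.

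Hif1a (ENSMUSG00000021109.13, chromosome 12, 73901375 to 73947530, plus strand) encodes the oxygen-regulated HIF subunit itself. Wild-type replicates 1 to 5 had 45.9, 51.4, 54.5, 49.0 and 55.5 FPKM. The ΔFOXC2 replicates 1 to 5 had 49.4, 47.2, 48.0, 47.4 and 45.5 FPKM. The groups overlapped, since wild-type replicate 1 lay below 4 of the 5 ΔFOXC2 libraries. The log2 difference was 0.11 (SE 0.05).

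Of the 5 genes, Adm and Ankrd37 met the call used below, an adjusted p of at most 0.05 by limma with at least 1.5-fold, which 8.62% of all tested genes met, 3.65% with higher and 4.97% with lower levels in the wild type. Adm, Ankrd37 and Ndrg1 had groups that did not overlap, as in 30.0% of all tested genes. Ankrd37 was among the tested genes only through the wild type, since its ΔFOXC2 mean of 0.361 FPKM lay below the filter of 0.5 FPKM. Since this contrast was used to choose the genes, nothing is read from these counts.

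**Figure D1:**
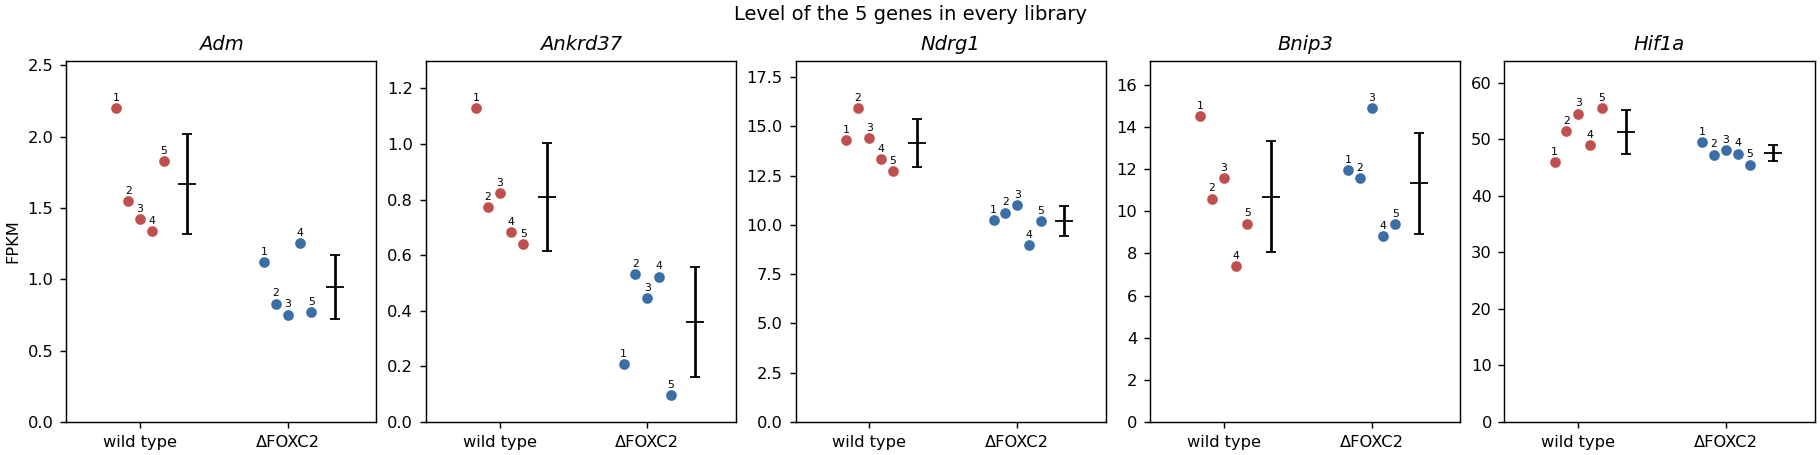
FPKM of Adm, Ankrd37, Ndrg1, Bnip3 and Hif1a (vertical axes from 0, a different scale in each panel) in the 5 wild-type and 5 ΔFOXC2 libraries. Points are libraries with their replicate number and bars are the mean ± SD; the groups are apart in Adm, Ankrd37 and Ndrg1 and overlap in Bnip3 and Hif1a.

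Whether the 5 genes rose and fell together among libraries of one line does not depend on how they were chosen. Each gene's log2(FPKM + 0.1) was taken relative to its group mean, and all 10 pairs of genes were correlated over the 10 libraries, which share their scaling. By an exact permutation of libraries within groups, 0 of the 10 pairs reached an adjusted p of 0.05, and 0 an unadjusted one. Adm and Ankrd37 had a Pearson r of 0.28 (exact permutation p = 0.490, adjusted p = 0.898) and a Spearman rho of 0.25 (exact permutation p = 0.495, adjusted p = 0.798), two-sided. Without the 2 libraries farthest from the median of Adm, r was -0.19. Among all other tested genes, 26.0% had an r with Adm at least as high as that of Ankrd37.

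The pair with the highest correlation was Bnip3 and Ndrg1, with r = 0.61 (exact permutation p = 0.0840, adjusted p = 0.840) and rho = 0.64 (exact permutation p = 0.0732, adjusted p = 0.732). It was 0.69 without the 2 farthest libraries, and 5.33% of tested genes followed Bnip3 at least as closely as Ndrg1 did. Adm and Ndrg1 had the most negative correlation, which did not pass the test either (r = -0.45, exact permutation p = 0.231, adjusted p = 0.887; rho = -0.22, exact permutation p = 0.559, adjusted p = 0.798; r = -0.29 without the 2 farthest). The other 7 pairs had r between -0.12 and 0.39, with adjusted p of 0.887 or 0.898 (exact permutation), and adjusted p of rho from 0.798 to 0.972. Without the 2 farthest libraries their r ran from -0.50 to 0.67. With 10 libraries such tests miss moderate correlations.

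The genes whose variation within groups was most like that of Adm, among the 6839 genes averaging 5 FPKM or more with no library at 0, were Zyx (r = 0.93), Ap1b1 (0.92), Zfp414 (0.91), Rps27l (0.90) and Nppb (0.88), over the 10 libraries. None of these 5 is in the list of hypoxia targets. Those most like Ankrd37 were Sec24b (0.96), Tmem126b (0.89), Fcf1 (0.88), 0610009O20Rik (0.87) and Epn1 (0.87), again with 0 genes of that list. The highest of so many correlations over so few libraries are high by selection, and they are given as a description. Over the 21 hypoxia targets of glucose metabolism, the median r was 0.49 with Bnip3, 0.35 with Ankrd37, 0.25 with Ndrg1, 0.02 with Adm and -0.21 with Hif1a. Over the other hypoxia targets it was 0.22 with Bnip3, 0.19 with Ankrd37, 0.16 with Ndrg1, -0.17 with Adm and 0.01 with Hif1a. Over all tested genes the median r with each of the 5 lay between -0.01 and 0.02.

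**Figure D2:**
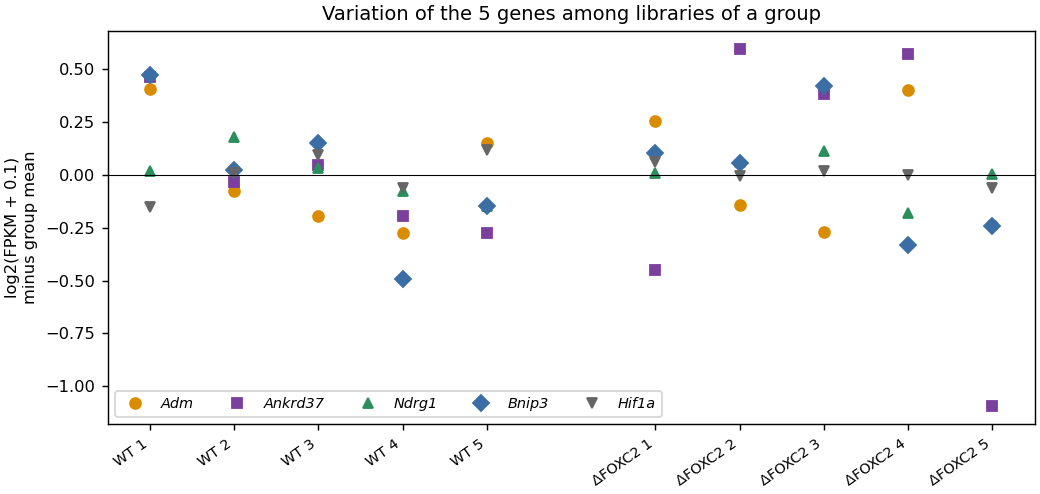
Deviation of each gene's log2(FPKM + 0.1) from its group mean (vertical axis) in the 5 wild-type and 5 ΔFOXC2 libraries (horizontal axis); each marker is one gene in one library. Ankrd37 reached -1.09 in ΔFOXC2 replicate 5, while the farthest library of Hif1a lay at -0.15.

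Among the other targets of HIF, most were not called and those called went in both directions. The hypoxia target list, 70 genes chosen with earlier results of these data known, had 54 tested genes, 50 of them besides the 5 described above. Of these 50, 4 rose in the wild type, 1 fell and 45 were not called. The share that rose was 8.0%, against 3.65% of all tested genes, and the share that fell 2.0%, against 4.97%; in either direction it was 10.0% against 8.62%. The median log2 difference of the 50 was 0.01, the same as over all tested genes (0.01). Of the 50, 27 were above 0, against 5399 of the 10570 tested genes. Counted by limma's adjusted p of 0.05 alone, without the fold, 16 were higher (32%) and 9 lower (18%), against 20.8% and 20.7% of all tested genes. With Adm, Ankrd37, Bnip3 and Ndrg1 counted in, 6 of 54 rose and 1 fell.

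None of the 21 tested targets in glucose uptake and metabolism was called by limma (5 higher and 3 lower by adjusted p alone, or 23.8% and 14.3%, against 20.8% and 20.7% of all tested genes; 9 by the unadjusted p, or 42.9% against 49.4%). Slc2a1, the glucose transporter GLUT1, had 11.6 ± 1.44 FPKM against 10.4 ± 0.898 (log2 0.15, limma adjusted p = 0.218). Pdk1, a kinase that limits the use of pyruvate in mitochondria, had a log2 difference of -0.09 (limma adjusted p = 0.677). Pgk1 and Gapdh, the most abundant of this list, had log2 differences of 0.17 and 0.08 (limma adjusted p = 0.00609 and 0.617), and both have processed pseudogenes that can share reads. Actb, the reference actin gene, had -0.02 (limma adjusted p = 0.797).

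Of the other targets, 29 were tested besides the described genes, and 4 rose (13.8%, against 3.65% of all tested genes) and 1 fell (3.45%, against 4.97%). Ccng2, an unconventional cyclin that restrains the cell cycle, had 1.94 to 2.53 FPKM (median 2.16) in wild-type and 0.731 to 1.32 (median 0.782) in ΔFOXC2 libraries, with no overlap (log2 1.16, SE 0.15, limma adjusted p = 0.000119). P4ha2, a collagen prolyl hydroxylase, had 1.95 to 2.18 FPKM against 1.00 to 1.56, also apart (log2 0.73, SE 0.12, limma adjusted p = 0.000510), and fell under 1.5-fold with a pseudocount of 1 (log2 0.47). The related enzyme P4ha1 had a log2 difference of -0.41 (limma adjusted p = 0.00227), below 1.5-fold in the other direction.

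Ddit4, an inhibitor of the growth kinase mTORC1, had 5.76 to 12.1 FPKM (median 7.78) against 3.43 to 7.76 (median 3.97), with overlap (log2 0.73, SE 0.25, limma adjusted p = 0.0341). Vegfa, the main growth factor for blood vessels, had 7.33 to 13.9 FPKM (median 10.1) against 4.30 to 10.1 (median 6.06), with overlap (log2 0.60, SE 0.21, limma adjusted p = 0.0401). Both calls lay near the threshold of adjusted p, and leaving out a single library often ended them. Vegfa no longer passed when any of wild-type replicates 3, 4 and 5 or ΔFOXC2 replicates 1, 2, 4 and 5 was left out (limma adjusted p = 0.0557 to 0.0892), with robust variances (0.0535), with no variance trend (0.0513) or after centring per chromosome (0.0653), and its fold was too small with a pseudocount of 1 (log2 0.54). Ddit4 no longer passed when any of wild-type replicates 2, 3 and 5 or ΔFOXC2 replicates 1, 4 and 5 was left out (limma adjusted p = 0.0547 to 0.0798).

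Rora, a nuclear receptor, was the target that fell, with 0.450 to 1.18 FPKM against 1.20 to 1.47, narrowly apart (log2 -0.75, SE 0.23, limma adjusted p = 0.0237). Leaving out wild-type replicate 4 (limma adjusted p = 0.0520) or 5 (0.0515) ended this call, as did a pseudocount of 1 (log2 -0.39). Car9, a carbonic anhydrase widely used as a marker of tumour hypoxia, had 0.538 to 0.961 FPKM against 0.685 to 1.10, with overlap (log2 -0.21, limma adjusted p = 0.327). Mif and Fam162a, the most abundant of these targets, had log2 differences of -0.02 each (limma adjusted p = 0.776 and 0.892).

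**Figure D3:**
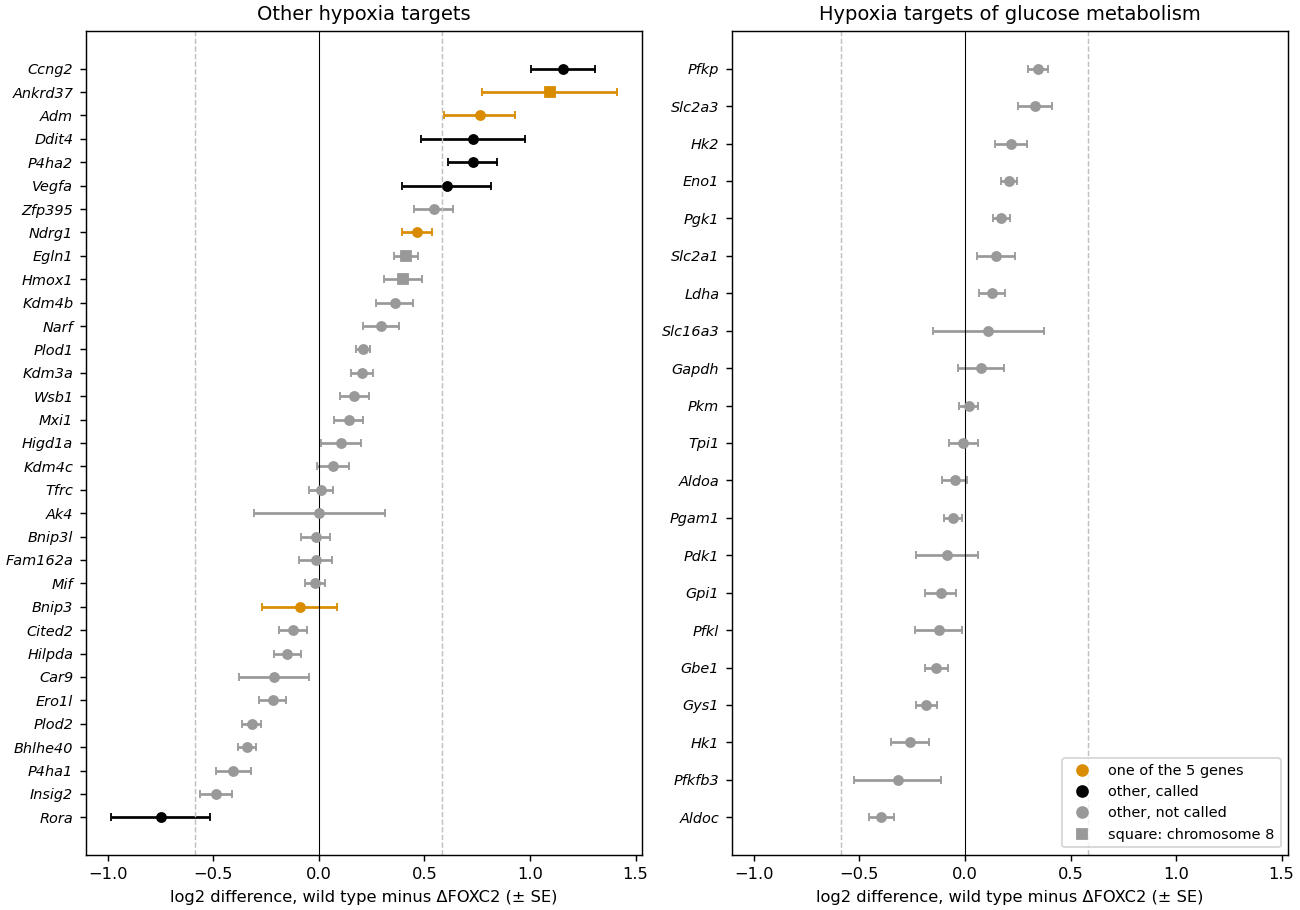
Log2 difference, wild type minus ΔFOXC2, with its SE (horizontal axis) for the 54 tested hypoxia targets in order of size, in panels for glucose metabolism (21 genes) and other targets (33 genes); dashed lines mark 1.5-fold. Targets lie on both sides of 0, from 1.16 for Ccng2 to -0.75 for Rora, and the glucose metabolism genes all lie within 1.5-fold.

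Among the genes that sense oxygen and make up HIF, 15 were tested besides Hif1a, and 1 rose, 0 fell and 14 were not called, so that 6.67% rose against 3.65% of all tested genes. By limma's adjusted p alone, 5 were higher and 1 lower, or 33.3% and 6.67%, against 20.8% and 20.7%. The gene that rose was Siah1a, a ubiquitin ligase that acts on prolyl hydroxylases, at 10.1 ± 0.471 FPKM against 6.64 ± 0.700 (log2 0.60, SE 0.07, limma adjusted p = 6.88e-05). It lies on chromosome 8, and it fell short of 1.5-fold when wild-type replicate 5 (log2 0.58) or ΔFOXC2 replicate 1 (log2 0.54) was left out, with a pseudocount of 1 (log2 0.54) and after centring per chromosome (log2 0.24). Epas1, the other tested alpha subunit, had 2.17 ± 0.408 FPKM against 1.63 ± 0.237 (log2 0.39, limma adjusted p = 0.0379), below 1.5-fold. The prolyl hydroxylase Egln1, also on chromosome 8, had 17.7 ± 1.04 FPKM against 13.3 ± 0.875 (log2 0.41, limma adjusted p = 0.000177), and 0.05 (adjusted p = 0.547) once the genes of each chromosome were centred on their median. Arnt (log2 -0.17, limma adjusted p = 0.0718) and Vhl (log2 0.14, limma adjusted p = 0.399) were not called. Egln1 and Cited2 are HIF targets too and were counted in both lists. Elob, a subunit of the VHL ligase, and Cited2, which competes with HIF for its coactivators, were the most abundant, at log2 0.19 and -0.12 (limma adjusted p = 0.0141 and 0.154), and were not called.

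Adrenomedullin acts on CALCRL, a receptor that needs a RAMP protein as partner, after the enzyme PAM has amidated it. Calcrl (chromosome 2) had 0.661, 1.05, 0.963, 0.768 and 1.69 FPKM in wild-type replicates 1 to 5. The ΔFOXC2 replicates 1 to 5 had 0.121, 0.328, 0.529, 0.234 and 0.214 FPKM. No wild-type library overlapped a ΔFOXC2 one, and Calcrl rose (log2 1.57, SE 0.29, limma adjusted p = 0.00138). With a pseudocount of 1 its log2 difference was 0.64. It passed the filter of a mean of 0.5 FPKM only through the wild type, with a mean of 1.03 FPKM there and 0.285 in ΔFOXC2 libraries. Pam (chromosome 1) went the other way, with 3.18 to 3.65 FPKM against 4.68 to 5.46, also apart (log2 -0.61, SE 0.06, limma adjusted p = 1.93e-05).

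The call of Pam rested on a fold close to the threshold. It was lost without wild-type replicate 1 (log2 -0.58), with a pseudocount of 1 (log2 -0.50) and when chromosomes were centred (log2 -0.35), since the other genes of chromosome 1 had a median of -0.26. Ramp2, the partner that makes CALCRL an adrenomedullin receptor, had 8.79 ± 2.53 FPKM against 10.5 ± 1.72 (log2 -0.29, limma adjusted p = 0.269). Ackr3, a receptor that removes adrenomedullin, had 3.04 ± 0.435 FPKM against 3.20 ± 0.561 (log2 -0.06, limma adjusted p = 0.719). Of 4 tested genes of this system besides Adm, 1 rose and 1 fell, where 3.65% and 4.97% of all tested genes did. The one that rose, Calcrl, was tested only because of its level in the wild type, so little can be read from this count. Mme, the peptidase neprilysin that degrades adrenomedullin among other peptides, lay below the filter of a mean of 0.5 FPKM and was not tested. Its wild-type libraries had 0.520 to 0.754 FPKM and its ΔFOXC2 libraries 0.0625 to 0.119. With no filter, 3 genes of the system, Adm counted in, were called higher in place of 2.

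**Figure D4:**
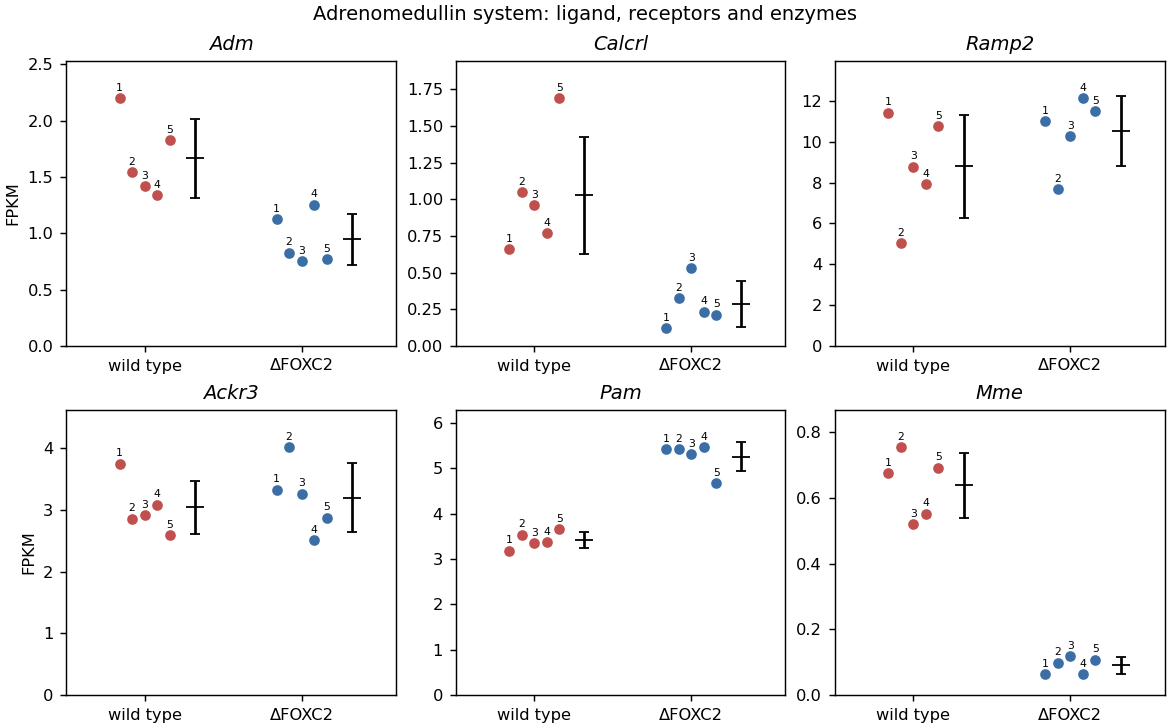
FPKM (vertical axes from 0) of adrenomedullin, its receptor genes Calcrl, Ramp2 and Ackr3, the amidating enzyme Pam and the peptidase Mme in the 5 wild-type and 5 ΔFOXC2 libraries; points are libraries with their replicate number and bars the mean ± SD. Adm, Calcrl and Mme lie higher in the wild type in every library, Pam lies lower, and Ramp2 and Ackr3 overlap.

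Around Bnip3, 14 other mitophagy receptors and autophagy partners were tested; 0 rose and 1 fell by limma (7.14%, against 4.97% of all tested genes). The gene that fell was Bcl2, whose product binds BNIP3 and restrains cell death, at 6.07 ± 0.294 FPKM against 10.5 ± 1.10 (log2 -0.77, SE 0.07, limma adjusted p = 1.14e-05); it lies on chromosome 1, and centring per chromosome took it under 1.5-fold (log2 -0.51). Bnip3l, the closest relative of Bnip3 and also a HIF target, had a log2 difference of -0.01 (limma adjusted p = 0.883). By adjusted p alone 4 of the 14 were higher (28.6%, against 20.8% of all tested genes) and 2 lower (14.3%, against 20.7%), and 6 passed by the unadjusted p (42.9%, against 49.4%). The most abundant, Phb2 and Gabarap, had log2 differences of 0.09 and -0.09. In the family of Ndrg1, Ndrg3 was lower in the wild type in every library, at 7.53 ± 0.512 FPKM against 11.0 ± 0.703 (log2 -0.54, limma adjusted p = 3.84e-05), opposite to Ndrg1 and below 1.5-fold. Ndrg4, on chromosome 8, had a log2 difference of -0.47 (limma adjusted p = 0.0798), and was called lower without ΔFOXC2 replicate 5 (log2 -0.60, adjusted p = 0.0292) and after centring per chromosome (log2 -0.83, adjusted p = 0.00764).

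Ankrd37 lies on a chromosome whose genes had a raised median difference. The other 577 tested genes of that chromosome had a median log2 difference of 0.36, and Ankrd37 stood 0.73 above it, with 14 of the 577 at or above its value. The 20 nearest tested genes of Ankrd37, 10 on each side, had a median of 0.25. Of these 20, 16 were above 0, against 5399 of all 10570 tested genes. The 3 nearest on each side, apart from Ufsp2, were Fam149a (log2 0.29), Tlr3 (-0.30), Snx25 (0.43), Cfap97 (-0.07) and the mitochondrial ADP/ATP carrier Slc25a4, which rose (log2 0.69, limma adjusted p = 1.10e-06). After centring per chromosome Slc25a4 was no longer called (log2 0.33), and Tlr3 was called lower (log2 -0.66, limma adjusted p = 0.00942). Adm stood among genes without such a shift: the other 747 tested genes of chromosome 7 had a median of 0.03, and 12 of them were at or above the value of Adm. Its nearest 3 on each side were Wee1 (-0.03), Swap70 (0.00), Sbf2 (0.37), Ampd3 (-0.45), Rnf141 (-0.48) and Ctr9 (-0.09), none called by limma, of which Sbf2, Ampd3 and Rnf141 had an adjusted p of at most 0.05. Adm and Ankrd37 were chosen by this same difference, so a high place among the genes of their chromosomes follows from the choice. Ndrg1 stood 0.53 above the median of chromosome 15 (-0.06). The part of the chromosome 8 shift in the Ankrd37 difference was not tested.

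**Figure D5:**
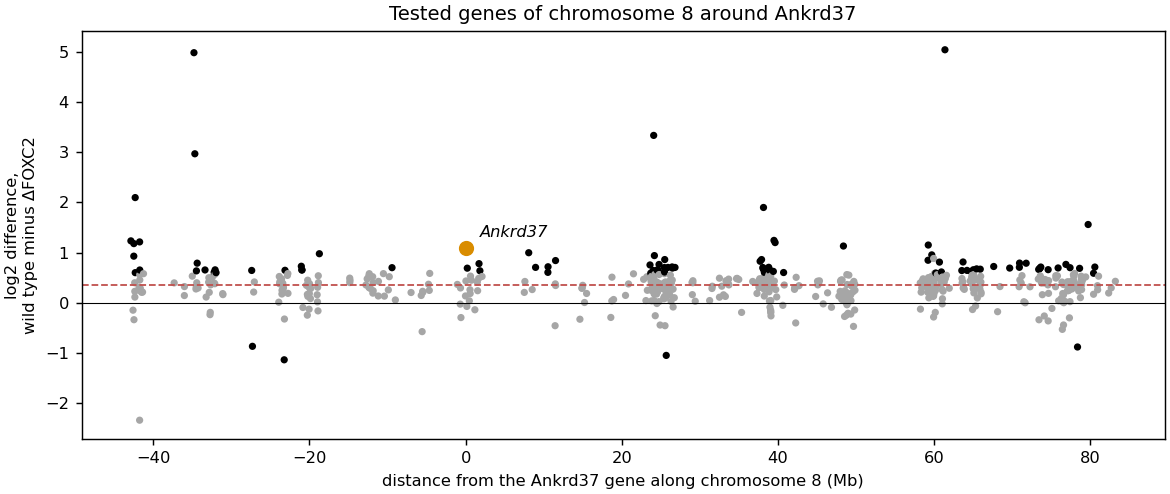
Log2 difference, wild type minus ΔFOXC2 (vertical axis), of Ankrd37 and the other 577 tested genes of chromosome 8 by their distance from Ankrd37 in Mb (horizontal axis). Black points are called genes, grey points are not called, the orange point is Ankrd37 and the dashed line is the median of the other genes, 0.36.

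The cells carried a strong melanocyte profile, with all 8 listed melanocyte markers in the table. Of these 8, 1, Tyr, fell in the wild type (12.5%, against 4.97% of all tested genes). All 8 were lower there by limma's adjusted p alone (100%, against 20.7% of all tested genes), with a median log2 difference of -0.27. Their summed level was 3289 to 3784 FPKM in wild-type and 3966 to 4384 in ΔFOXC2 libraries. The markers Pecam1, Cdh5, Tek, Kdr, Emcn, Cldn5 and Tie1 of endothelium, a cell type that expresses Calcrl and responds to adrenomedullin, were not among the listed genes (0 of 7). Of 7 leukocyte markers 2 were listed, Cd68 and Lyz2. Both fell, where 4.97% of all tested genes did, with summed levels of 0.757 to 1.40 FPKM against 2.53 to 4.59. Lyz2 was tested only through the ΔFOXC2 libraries, with a mean of 2.33 FPKM there and 0.386 in the wild type. Of 6 fibroblast markers 1 was listed, Col1a2, at 0.823 to 0.899 FPKM against 0.581 to 0.931, and was not called. Their part in the differences above was not tested. In RNA from whole cultures, fewer cells expressing a gene and less RNA of it per cell cannot be told apart. Between libraries the sum of FPKM ranged from 240441 to 251273, no pair of libraries was identical, and the libraries correlated across genes (no independent replicates) at 0.982 to 0.986 within groups and 0.954 to 0.965 between them.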

How the data were processed

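RNA of 10 samples, 5 of each line, was measured by strand-specific, poly(A)-selected sequencing with 150 cycles from both ends, per the labels' protocols. The authors deposited 1 table of FPKM per gene and library, computed by them, with locus and strand, for protein-coding genes only. Reads passed through FastQC, cutadapt and HISAT2, then StringTie, and the build was GRCm38, per the submitters' processing notes; versions and counting options are not given in the sources used here. Read counts were not used here, so depth is unknown and no counting intervals are given. FPKM is relative to all fragments of a library, so large changes in abundant genes shift the others.

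From these values, log2(FPKM + 0.1) was tested with limma 3.58.1 in R 4.3.3 (mean-variance trend, two-sided, no covariates) over 10570 genes averaging 0.5 FPKM or more; 165 lay below that. P-values were adjusted by Benjamini-Hochberg over all tested genes, and calls needed an adjusted p no higher than 0.05 and a difference of 1.5-fold or more, the fold in the series' design text. Differences are wild type minus ΔFOXC2, and rose or fell is used of called genes. Correlations within groups were tested by all 14400 permutations of libraries within groups, in Python 3.11.15. The members and gene lists were chosen with earlier results of these data known. Genes were named by rule: called list members, the most abundant 2 of each list, genes fixed by name, the nearest 3 tested genes on each side, and the 5 most alike within groups; others, such as P4ha1, Bnip3l, Ndrg4 and Mme, were chosen after their values were seen. The gene lists were read without a set test. Overlaps used GENCODE M21 (GRCm38), and promoter sequences are from RefSeq (GRCm38.p6). The limma fit and the pair test were tested on simulated data. Pseudocounts of 1 and 0.01, other filters, median-of-ratios scaling, robust or untrended variances, centring per chromosome, a replicate block and leaving out each library were tried.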

Additional observations from a re-analysis of the deposited data

Results flagged for a closer look

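In groups of 5 libraries, a single value was examined for lying far from the other 4, in 52 named genes and 104 groups. Chance sets about 1 in 20 such groups apart, and 5 were. None of the 5 genes the account is about was among them. Actb stood at 502 FPKM in wild-type replicate 1, above 404 to 433 in the other wild-type libraries. Pam stood at 4.68 FPKM in ΔFOXC2 replicate 5, below 5.31 to 5.46 in the others. Pgk1 stood at 227 FPKM in ΔFOXC2 replicate 3, above 205 to 210.1 in the others. Phgdh, an enzyme of serine synthesis, stood at 125 FPKM in wild-type replicate 5, above 102 to 106 in the others. Vhl stood at 5.36 FPKM in ΔFOXC2 replicate 3, below 7.59 to 8.24 in the others.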

How the results depend on the processing

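The differences of Adm, Ankrd37, Ndrg1 and Hif1a kept their direction in all 15 alternatives examined for them. Filter and variance settings were left out, since they do not alter a log2 difference, and the replicate block among the 15 cannot alter it either. The differences moved by more than the spread within groups only with a pseudocount of 1, to 0.4526 for Adm and 0.4173 for Ankrd37. That of Bnip3 was above 0 in 2 of the 15. Leaving out each library in turn gave 0.66 to 0.86 for Adm, 0.82 to 1.24 for Ankrd37, 0.42 to 0.50 for Ndrg1, -0.21 to 0.03 for Bnip3 and 0.08 to 0.14 for Hif1a. A pseudocount of 1 took the genes called over the table from 386 higher and 525 lower to 230 and 338, and a filter at 5 FPKM, which tests fewer genes, to 123 and 217. With a pseudocount of 1, the hypoxia targets called became 2 higher and 0 lower, the oxygen sensing genes 0 higher, and the adrenomedullin genes 1 higher and 0 lower. With the filter at 5 FPKM, the hypoxia targets became 2 higher and 0 lower and the adrenomedullin genes 0 higher and 0 lower. Centring per chromosome left 0 oxygen sensing genes higher, 0 adrenomedullin genes lower and 0 mitophagy genes lower. At any fold, 19 hypoxia targets were higher and 9 lower. Leaving out each library gave 4 to 6 hypoxia targets higher and 0 to 1 lower, 0 to 1 oxygen sensing genes higher, 0 to 1 adrenomedullin genes lower and 0 to 1 mitophagy genes higher; over the table it gave 367 to 403 higher and 510 to 555 lower. The count of correlated pairs was 0 under every alternative run.

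The groups share replicate numbers. Deviations of same-numbered libraries correlated at -0.12 to 0.14, so the numbers were not taken to pair them. With the replicate block, 390 genes were called higher and 526 lower, 6 hypoxia targets were higher and 1 lower, and no named call changed. Without a filter, 441 genes were called higher and 567 lower. Where calls changed, the cause was not tested. Depth is unknown, so the counting error of low genes such as Ankrd37 and Adm could not be given.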

Other observations

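In the integrated stress response, the programme by which ATF4 raises amino acid synthesis and import under stress, 6 of 14 tested genes rose in the wild type, 0 fell and 8 were not called. The share that rose was 42.9%, against 3.65% of all tested genes. This list too was chosen with earlier results of these data known, so the share is a description and not a test. The median log2 difference was 0.64 and all 14 were above 0, against 5399 of the 10570 tested genes. That of Atf3 was only 0.02 (limma adjusted p = 0.960), and its mean FPKM was lower in the wild type, at 8.53 against 9.07. Atf4 itself had a log2 difference of 0.58 (limma adjusted p = 0.0226), just under 1.5-fold. Asns, asparagine synthetase, had 65.5 ± 9.39 FPKM against 38.0 ± 12.3 (log2 0.83, limma adjusted p = 0.00360). Mthfd2, of mitochondrial folate metabolism, had 124 ± 26.2 against 70.2 ± 24.4 (log2 0.86, limma adjusted p = 0.00780), and Phgdh 108 ± 9.37 against 66.8 ± 11.8 (log2 0.71, limma adjusted p = 0.000257). Psat1 (log2 0.85, limma adjusted p = 0.0114), the cystine transporter Slc7a11 (log2 0.93, limma adjusted p = 0.0237) and Chac1 (log2 1.23, limma adjusted p = 0.0494) also rose. Slc7a11 no longer passed when ΔFOXC2 replicate 1 (limma adjusted p = 0.0558) or 5 (0.0577) was left out. Chac1 failed in 10 of 19 alternatives, among them the omission of any of wild-type replicates 2 to 5 and ΔFOXC2 replicates 1, 4 and 5 (limma adjusted p = 0.0639 to 0.113).

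These genes also varied among libraries of one group, and the genes described above differed in how they went with them. Over the 10 libraries, with group means removed, the median Pearson r with the 14 stress genes was taken. Among hypoxia targets it was 0.89 for Vegfa, 0.83 for Ddit4, 0.70 for Ccng2, 0.29 for P4ha2 and -0.06 for Rora. For Calcrl, of the adrenomedullin system, it was 0.90. The median r over all tested genes was not taken for Calcrl or these targets. It was -0.32 for Adm, with 2 of 14 above 0, 0.39 for Ankrd37, 0.43 for Hif1a, 0.06 for Bnip3 and 0.00 for Ndrg1. These values are descriptions over libraries that share their scaling; the comparison was chosen after the levels had been seen, and the part of the stress genes in any difference was not tested.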
